A study of Mus musculus with 3 samples.

Results

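Immediate early genes are genes that neurons transcribe within minutes of a stimulus without first making new protein, and 10 of them are described here: Fos, Fosb, Junb, Egr1, Egr2, Egr3, Egr4, Arc, Npas4 and Nr4a1. They were chosen by name, as the classical activity-dependent set, but with earlier results of these data known. Each was found, so they make up 10 of 18125 protein-coding genes with a value. RNA of mouse cortical neurons was sequenced in 3 libraries, which share the genotype WT and the treatment CON, so there was 1 group and no second treatment to compare. The age, culture and time in culture were not given in the sources used here, and nothing says that the 3 libraries, called replicates 1, 2 and 3, came from separate cultures. The spread between them, and any p-value drawn from it, may therefore be technical.

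In a resting neuron these genes are kept at a low level but poised. Calcium that enters through NMDA receptors and voltage-gated channels activates kinases, which phosphorylate CREB and the partners of SRF already sitting at their promoters and enhancers, and transcription follows at once. Most of the products are transcription factors that switch on a later wave of genes, while Arc acts at the synapse. Breaks made by topoisomerase II beta have been described at promoters of several of them, among them Fos and Npas4, which ties them to the subject of the series, the topoisomerases of the neuronal genome. Their messages and proteins are short-lived, so their levels are known to follow the recent history of a culture.

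Because the members answer to a shared set of signals, their promoters are shown first. RefSeq promoter windows on GRCm38.p6, 250 bases before to 50 bases after a start, were found for 7 of the 10 genes (Fos, Fosb, Junb, Egr2, Egr4, Npas4 and Nr4a1), each with a window at exactly the start of the transcript used here. The 250 bases upstream of 4 of them follow, chosen from those that hold 2 or more copies of a motif found in all 7. Capitals mark TGACG or its reverse complement CGTCA (the core of the CREB site), TATAAA (the TATA box) and the CArG box bound by SRF. They are Fos at chr12:85473640-85473889 on the plus strand, Nr4a1 at chr15:101266596-101266845 on the plus strand, Egr2 at chr10:67537619-67537868 on the plus strand and Npas4 at chr19:4989972-4990221 on the minus strand.
Fos: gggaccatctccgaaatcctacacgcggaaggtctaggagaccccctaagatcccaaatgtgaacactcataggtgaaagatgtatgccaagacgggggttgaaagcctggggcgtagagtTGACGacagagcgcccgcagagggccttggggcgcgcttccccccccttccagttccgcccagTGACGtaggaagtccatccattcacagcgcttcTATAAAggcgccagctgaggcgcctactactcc
Nr4a1: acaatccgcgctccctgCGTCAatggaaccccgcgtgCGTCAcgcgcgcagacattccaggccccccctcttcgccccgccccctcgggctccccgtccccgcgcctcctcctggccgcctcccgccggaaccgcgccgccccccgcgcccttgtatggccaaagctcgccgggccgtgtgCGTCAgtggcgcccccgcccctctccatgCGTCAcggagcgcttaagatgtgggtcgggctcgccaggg
Egr2: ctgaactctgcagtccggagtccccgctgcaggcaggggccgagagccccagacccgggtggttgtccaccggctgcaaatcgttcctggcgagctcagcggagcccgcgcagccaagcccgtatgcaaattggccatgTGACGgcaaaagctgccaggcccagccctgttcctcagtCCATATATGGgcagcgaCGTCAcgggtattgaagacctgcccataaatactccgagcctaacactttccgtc
Npas4: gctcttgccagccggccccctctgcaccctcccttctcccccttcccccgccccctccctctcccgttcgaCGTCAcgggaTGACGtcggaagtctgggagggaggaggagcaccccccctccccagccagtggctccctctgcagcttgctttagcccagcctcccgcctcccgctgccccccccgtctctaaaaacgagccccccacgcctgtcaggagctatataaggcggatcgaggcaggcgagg

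With 1 window per gene, that at the start of the transcript used, the CREB core was found in 7 of the 7 windows, on either strand. The background counts every window of a gene, and 20.8% of 32851 windows of the same 300 bases in the whole table held the core. Counted by gene, the share was 23.0% of 27025 genes. Egr2 also had windows at other starts, which are left out here, and those for the starts 67535499 and 67537566 held 0 copies. Nr4a1 held 4 copies, with first bases at -233, -213, -69 and -40 from the start, and 0.23% of all windows held as many. Fos held 2, at -129 and -66, and Npas4 held 2, at -179 and -169, on opposite strands. The full palindrome TGACGTCA, which contains the core on both strands, was in none of the 7 windows and in 1.79% of all windows. TATAAA was in the windows of Fos, at -33, and Junb, beginning at base 1 after the start, against 13.6% of all windows. A CArG box was found in 1 of the 7 windows, that of Egr2, at -72, against 1.63% of all windows. Sites further upstream were not searched, nor any in Arc, Egr1 and Egr3, which had no window. The core holds a CG pair, and the 7 windows were richer in G and C (median 67.7%) than the table's windows (median 52.7%), so the comparison of shares mixes composition with sequence. These matches describe letters in a window and are not evidence of binding.

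The message ends were searched too, since an AU-rich element in the 3′ untranslated region is the textbook reason why the Fos message decays within minutes. That element is shown because Fos was the single member with the nonamer TTATTTATT, which 7.65% of 21045 coding genes carried. The stretch of 29 bases printed here, which holds the nonamer, begins at base 645 of the Fos 3′ untranslated region. Capitals mark overlapping copies of the pentamer ATTTA.
Fos: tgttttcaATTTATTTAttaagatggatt
Of the 10 genes, 6 had at least 2 ATTTA pentamers in their longest annotated 3′ untranslated region, against 47.0% of all coding genes, a share near the background. Egr3 had 7, Fos 4, Egr2 and Nr4a1 3 each and Junb and Egr1 2 each, while Arc and Egr4 had 0. The Egr3 region, of 2645 bases, belongs to a longer annotated transcript than the 1416-base one used for its level.

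The 10 genes were also compact. Their transcripts spanned 1.84 to 7.95 kb of the genome with a median of 3.90 kb, against a median of 19.8 kb for all coding genes, and each was shorter than 10 kb, as were 31.1% of all coding genes. They had a median of 3 exons, against 8. The spliced messages were of ordinary size, with a median of 2719.5 bases against 2740. No stretch of 50 bases in the transcripts used was shared with a transcript of another gene, so members of the same family were counted apart.

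Levels are given in TPM, a relative abundance scaled to transcript length and library size, over a table in which overlapping transcripts of a gene share reads. For a gene, the value is that of the coding transcript whose mean TPM times exonic length was highest, a product that is proportional to its reads. Those reads could be recovered as whole numbers for the 10 genes, and the counting intervals below are exact Poisson intervals at 95%, which cover counting error only. The libraries held 33520817, 29624707 and 29117180 reads on the transcripts chosen for coding genes, and the columns correlated with a Spearman's rho of at least 0.99 across 11200 expressed genes, which are not independent. A gene was called expressed at a mean of at least 1 TPM. All 12 pan-neuronal markers were expressed, with a median of 209.6 TPM, as the cell type label says.

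Of the 10 genes 9 were expressed, against 61.8% of all coding genes, and 3 reached 5 TPM, against 40.9%. Their median level was 3.97 TPM, against 2.91 TPM for all coding genes and 8.29 TPM for the expressed ones. The members covered a wide range, from Egr1, which stood above 83.8% of coding genes, to Fosb, which stood above 33.6% of them. Rescaled to a total over nuclear coding genes alone, the member median was 18.6. That scale raises all genes of a library by the same factor, so 18.6 cannot be set against the 2.91 and 8.29 TPM.

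**Figure D1:**
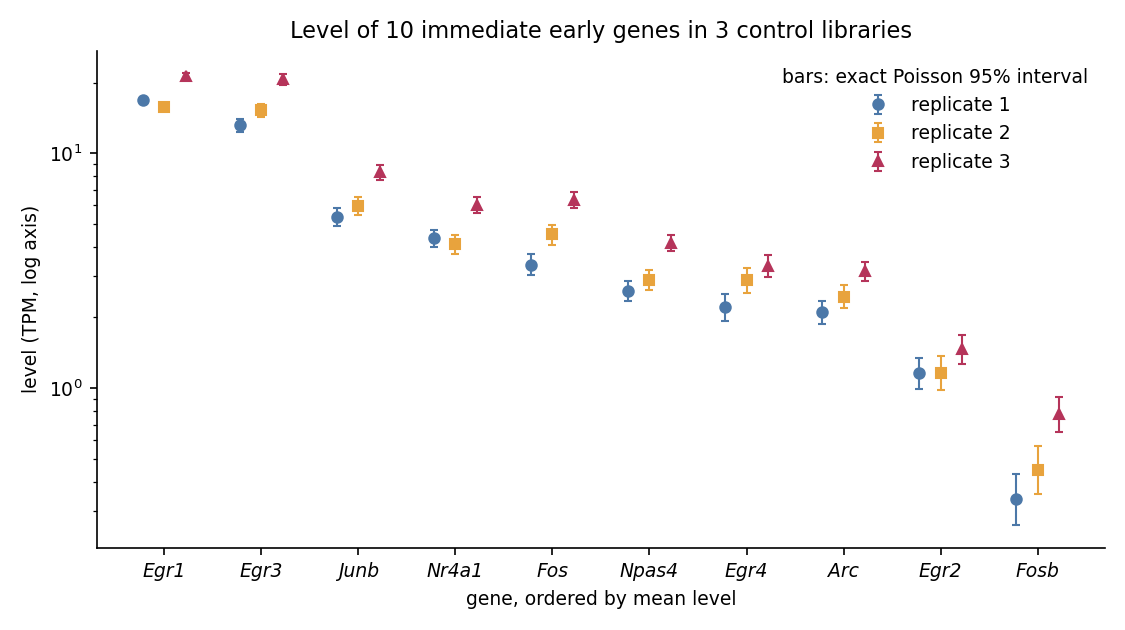
Level of each gene (TPM, log axis) in replicates 1, 2 and 3, ordered by mean level, with exact Poisson 95% intervals as bars. Egr1 and Egr3 lie between 13.2 and 21.2 TPM, Fosb lies below 1 TPM, and the triangle of replicate 3 is the highest of the 3 symbols for each gene.

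The AP-1 subunits Fos, Fosb and Junb form a dimeric factor, in which a Fos protein pairs with a Jun protein. Fos (ENSMUSG00000021250.13; 4 exons, chromosome 12, 85473890 to 85477273 on the plus strand) stood at 3.36, 4.51 and 6.34 TPM in replicates 1, 2 and 3, from 363, 411 and 611 reads. Its 3 counting intervals, 3.02 to 3.72, 4.08 to 4.97 and 5.85 to 6.87 TPM, did not overlap, and replicate 3 was the highest. Fosb (ENSMUSG00000003545.3; chromosome 7, 19302721 to 19310045, minus strand), whose truncated splice form accumulates with repeated stimulation, stood at 0.34, 0.45 and 0.78 TPM from 65, 73 and 133 reads. The table held 1 Fosb transcript, so the full-length and truncated forms could not be told apart. Replicate 3 lay above the intervals of the others, which overlapped each other.

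Junb (ENSMUSG00000052837.6; chromosome 8, 84976909 to 84978748, minus strand), an AP-1 subunit encoded by a single exon, stood at 5.38, 5.97 and 8.29 TPM from 507, 475 and 697 reads. Replicates 1 and 2 overlapped within counting error and replicate 3 was apart from both. Inside the libraries the difference Fosb minus Fos was -2.98 ± 0.09 on the log2(TPM + 0.1) scale, on which differences of low genes are understated. As a ratio Fos was 9.38 ± 1.04 times Fosb (SD, n = 3; exact sign-flip p = 0.25, adjusted over 8 pairs p = 0.29). That p is the smallest that 3 libraries allow, so no pair could pass 0.05. Junb exceeded Fos by 0.48 ± 0.16, in 3 of 3 libraries (exact sign-flip p = 0.25, adjusted p = 0.29), and the sign turned when all transcripts were summed, since Fos has 4 overlapping transcripts in the table and Junb 1.

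The Fos transcripts differed in reads per kb. The inner noncoding model ENSMUST00000134311.1 shares 607 of its 631 bases with the middle of the full-length transcript, from the second exon into the fourth. It held 157, 169 and 287 reads, or 249, 268 and 455 reads per kb. The 1501 bases found in the full-length transcript alone are the first exon and most of the 3′ end. Full-length reads less inner reads gave 137, 161 and 216 reads per kb for them. By this subtraction the inner part was denser by a factor of 1.81, 1.66 and 2.11, with the largest factor in replicate 3. Reads that span both stretches, or that fall on the 24 bases of the inner model alone, may count for the inner model and raise the factor. How reads that span both stretches were counted is not given in the sources used here, so uneven coverage of Fos was not settled.

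The Egr genes encode zinc finger factors that bind GC-rich sites in promoters, and Egr1 is the one most used as a marker of recent activity. Egr1 (ENSMUSG00000038418.7; chromosome 18, 34859823 to 34864984, plus strand) stood at 16.8, 15.8 and 21.2 TPM from 3859, 3055 and 4351 reads. Egr3 (ENSMUSG00000033730.4; chromosome 14, 70077445 to 70080157, plus strand), a close relative with the same kind of zinc fingers, stood at 13.2, 15.2 and 20.6 TPM from 957, 932 and 1335 reads. In both genes the interval of replicate 3 lay above those of the other replicates. Egr3 minus Egr1 was -0.15 ± 0.17, within the spread between libraries though of the same sign in each (exact sign-flip p = 0.25, adjusted p = 0.29). Without replicate 1 it was -0.045.

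Egr2 and Egr4 were far below. Egr4 (ENSMUSG00000071341.4; chromosome 6, 85511131 to 85513589, minus strand), the most divergent of the family, stood at 2.21, 2.88 and 3.32 TPM from 242, 266 and 324 reads. Replicate 1 was apart from both others, which overlapped. Egr2 (ENSMUSG00000037868.15; chromosome 10, 67537869 to 67542188, plus strand), best known for its part in peripheral myelination and hindbrain patterning, stood at 1.16, 1.16 and 1.46 TPM from 176, 149 and 198 reads, and its 3 intervals overlapped. Egr1 was 14.2 ± 0.55 times Egr2 and 6.49 ± 1.07 times Egr4 inside the libraries, or log2 differences of -3.72 ± 0.06 and -2.64 ± 0.23 for the lower gene minus Egr1 (exact sign-flip p = 0.25 and adjusted p = 0.29 for each).

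The Egr1 level depends on which annotated model is used. The transcript with the most reads, ENSMUST00000064795.5, starts 1384 bases upstream of the model ENSMUST00000165033.1 and is 4484 bases long, against 3036. Yet the longer model held 3859, 3055 and 4351 reads and the shorter one 3858, 3052 and 4349, so the 1448 bases found in the longer model alone added 1, 3 and 2 reads. Even coverage would have placed 1246, 987 and 1405 reads there. Dividing by a length that is almost bare of reads lowers the level, and with the shorter model Egr1 stood at 24.8, 23.3 and 31.4 TPM, a factor of 1.48 above the values given first. The log2 differences from Egr1 were then -0.70 for Egr3, -3.20 for Egr4 and -4.28 for Egr2. Egr1 led the members under either model, and with the shorter one its distance from Egr3 was larger than the spread between libraries. Only 1 Egr3 transcript, of 1416 bases, had a value, so whether the Egr3 level depends on its model could not be examined.

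**Figure D2:**
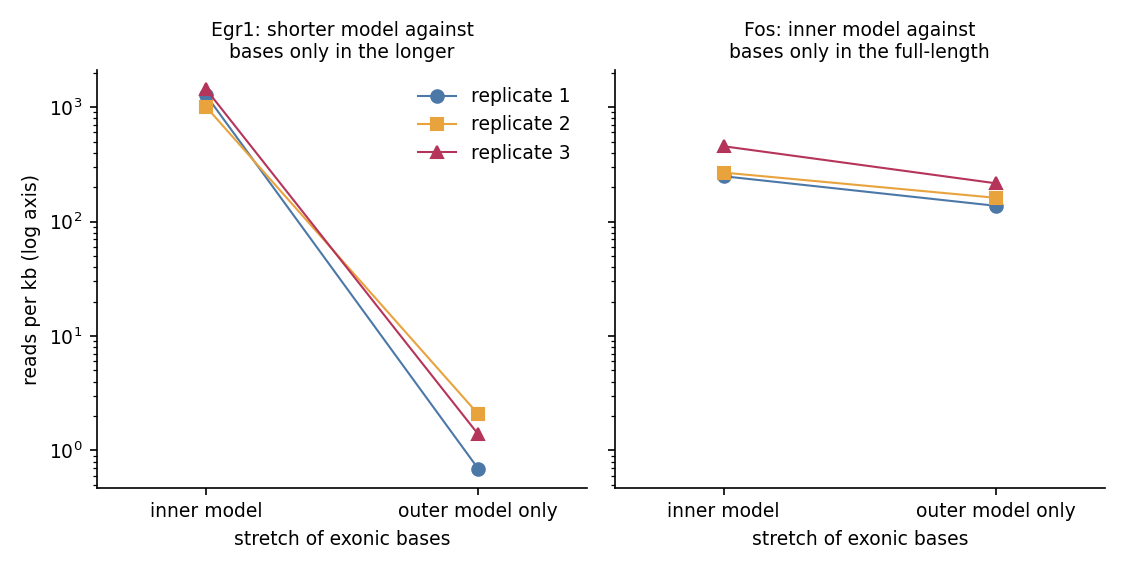
Reads per kb of exon (log axis) in the inner model and in the bases found in the outer model alone, for Egr1 (left) and Fos (right), with 1 line for each library. The bases that the longer Egr1 model adds held 0.69, 2.07 and 1.38 reads per kb against 1271, 1005 and 1432 in the shorter model. In Fos the 2 stretches differed by a factor of 1.66 to 2.11. Reads of the outer bases were obtained by subtraction, so reads that span both stretches may count for the inner model.

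Nr4a1, Npas4 and Arc are 3 other kinds of immediate early gene. Nr4a1 (ENSMUSG00000023034.7; 7 exons, chromosome 15, 101266846 to 101274792, plus strand), an orphan nuclear receptor also called Nur77, stood at 4.34, 4.10 and 6.03 TPM from 550, 438 and 681 reads. Its order against Fos was not settled, with a difference of 0.05 ± 0.27 that was positive in replicate 1 and negative in the others (exact sign-flip p = 1, adjusted p = 1). Npas4 (ENSMUSG00000045903.9; 8 exons, chromosome 19, 4984355 to 4989971, minus strand), a bHLH-PAS factor that answers to calcium in neurons and shapes inhibitory synapses, stood at 2.59, 2.89 and 4.14 TPM from 435, 410 and 620 reads. Npas4 minus Fos was -0.53 ± 0.14 on the log2 scale, with the same sign in 3 of 3 libraries (exact sign-flip p = 0.25, adjusted p = 0.29). Both genes were highest in replicate 3, outside the intervals of the other replicates.

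Arc (ENSMUSG00000022602.14; 3 exons, chromosome 15, 74669083 to 74672568, minus strand) encodes a dendritic protein that promotes the uptake of AMPA receptors and can form virus-like capsids. It stood at 2.10, 2.45 and 3.14 TPM from 329, 324 and 438 reads, with replicate 3 above the intervals of the others. Arc minus Fos was -0.83 ± 0.17, with the same sign in 3 of 3 libraries (exact sign-flip p = 0.25, adjusted p = 0.29). The table's 2 Arc transcripts had the same reads in each library and differed in length by 1 base.

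In order of mean level the genes ran Egr1 (17.9 ± 2.91 TPM), Egr3 (16.3 ± 3.85), Junb (6.55 ± 1.54), Nr4a1 (4.82 ± 1.05), Fos (4.74 ± 1.51), Npas4 (3.21 ± 0.82), Egr4 (2.80 ± 0.56), Arc (2.56 ± 0.53), Egr2 (1.26 ± 0.17) and Fosb (0.52 ± 0.23; SD, n = 3 for each). Neighbours whose difference was within 2 SD of the libraries' differences were Egr1 and Egr3, Nr4a1 and Fos, Npas4 and Egr4, and Egr4 and Arc. The other 5 neighbouring pairs differed by more than that. On the log2 scale used for differences, the gap between Egr3 and Junb had the largest mean, at 1.31 ± 0.03 units. That between Egr2 and Fosb stood at 1.18 ± 0.34. The scale understates differences of low genes such as Fosb, so which of these gaps was wider was not settled. Of all 45 pairs of members, 44 stood in the same order in the 3 libraries, and Nr4a1 and Fos were the exception. The share among pairs of other expressed genes was not computed, so this count has no background and is not a trait of the members.

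The libraries differed more for these genes than for most expressed genes. Each of the 10 was highest in replicate 3, where 31.4% of the expressed genes were highest, none in replicate 1 (28.2% of expressed genes) and none in replicate 2 (40.4%). The lowest value lay in replicate 1 for 8 members and in replicate 2 for Egr1 and Nr4a1, against 33.6%, 25.4% and 40.9% of expressed genes that were lowest in replicates 1, 2 and 3. By a stricter count, chosen after the values were seen, 9 of the 10 were at least 1.2 times as high in replicate 3 as in either other library, against 4.49% of expressed genes. None was so in replicate 1 (2.46% of expressed genes) or in replicate 2 (3.49%). At 1.4 times the count was 3 of 10, against 0.964% of expressed genes. At 1.2 times Egr4 was the exception, 1.15 times its next highest value, and Fosb the extreme, at 1.72 times. Fosb, at a mean below 1 TPM, is not among the expressed genes set beside the members here and below. Of the 9 expressed members, 9 were highest in replicate 3 and 8 were so by at least 1.2 times.

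Expressed as a deviation from each gene's own mean over the 3 libraries, the members had medians of -0.26, -0.10 and 0.35 log2 units in replicates 1, 2 and 3. The medians of all expressed genes were -0.01, 0.02 and -0.02. In replicate 3 the members ran from 0.21 for Egr2 to 0.56 for Fosb, and 9 of them lay above the 95th percentile of expressed genes, which was 0.21. Centring each library on the median of expressed genes also left 10 of the 10 highest in replicate 3. With 3 libraries of 1 group there is no labelled difference to test, and these are descriptions of the libraries. The members were also chosen with earlier results of these data known.

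**Figure D3:**
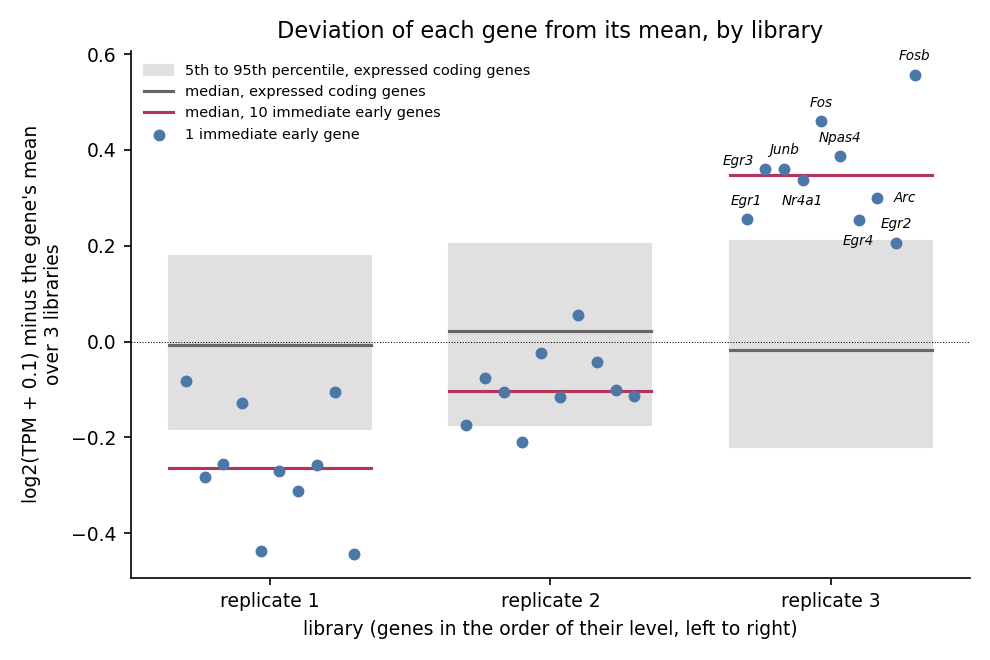
Deviation of log2(TPM + 0.1) from the gene's mean over the 3 libraries, by library. Points are the 10 genes in the order of their level, red lines their medians (-0.26, -0.10 and 0.35), grey lines and bands the median and the 5th to 95th percentile of 11200 expressed coding genes. In replicate 3 every point except that of Egr2 lies above the grey band.

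The coefficient of variation over the 3 libraries was 13.8% for Egr2, 16.2% for Egr1 and 19.9% for Egr4. It was 20.6% for Arc, 21.8% for Nr4a1, 23.5% for Junb and 23.6% for Egr3. The largest were 25.6% for Npas4, 31.8% for Fos and 43.6% for Fosb. Counting alone would give a median of 4.59%. The median of the members was 22.7%, above the value of 96.6% of the expressed genes, whose own median was 7.88%. Among coding genes with no filter on low values, 74.1% lay below it. The members moved together: the SD of a difference between 2 members inside the libraries had a median of 0.16 log2 units, against 0.31 for the SD of a member's own level. Junb, Egr3, Npas4 and Arc had profiles nearest to the members' median profile, within 0.08 log2 units (Euclidean distance over 3 libraries). Fosb and Fos, which swung most, were farthest, at 0.275 and 0.221. Egr1 and Egr2, which varied least, were almost as far as Fos, at 0.216 and 0.213. The 5 expressed genes outside the set with the nearest profiles were Cbx1, a heterochromatin protein gene, at 0.019, Agrp at 0.024, Daam2 at 0.025, Bcar3 at 0.028 and Hsd17b11 at 0.033 log2 units. All 5 lay nearer to the members' median profile than any member except Junb, at 0.016. That profile is taken from the members themselves, and a profile of 3 values is a loose measure of likeness.

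Related genes were read from lists, which were also chosen with earlier results of these data known. With 1 group and no second treatment, a response to activity was not tested. Of 15 other inducible transcription regulators 11 were expressed, and 9 of those 11 were highest in replicate 3, 6 of them by at least 1.2 times. The shares of expressed genes were 31.4% and 4.49%. Jun, the usual partner of Fos, stood at 8.66, 8.28 and 12.6 TPM. Jund, the AP-1 subunit with the most constant expression in textbook accounts, stood at 6.92, 7.92 and 11.1 TPM. Both were thus highest in replicate 3, like Junb. The other Fos protein genes differed: Fosl2 was lowest there, at 7.58, 7.12 and 5.99 TPM, and Fosl1 had 1, 3 and 3 reads, at or under the limit of 3 reads that a count of 0 allows. Among the receptors related to Nr4a1, Nr4a3 hardly varied, at 8.40, 8.44 and 8.55 TPM, and Nr4a2 stood at 1.47, 1.34 and 1.54 TPM. The median of this list was 3.49 TPM and its median deviations were -0.03, -0.10 and 0.24 log2 units over its expressed genes.

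**Figure D4:**
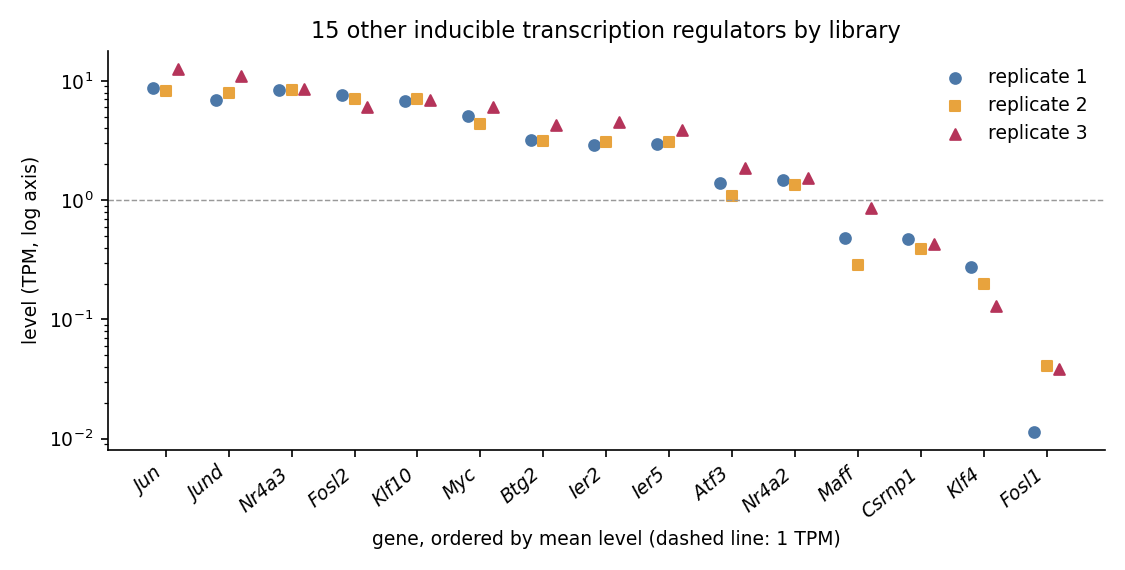
Level (TPM, log axis) of 15 other inducible transcription regulators in replicates 1, 2 and 3, ordered by mean level, with a dashed line at 1 TPM. Jun, Jund, Ier2 and Atf3 are highest in replicate 3, Nr4a3 and Klf10 vary little, and Fosl2 and Klf4 are lowest in replicate 3.

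Inducible effectors and genes of the later wave were less uniform. Of 20 such genes 19 were expressed, with a median of 4.88 TPM, and 9 were highest in replicate 3, 9 in replicate 2 and 1 in replicate 1. The shares of expressed genes were 31.4%, 40.4% and 28.2%. In replicate 3, 5 of the 19 were at least 1.2 times as high as in either other library, against 4.49% of expressed genes. Another 5 were lowest there, against 40.9% of expressed genes. Scg2, a secretory granule protein gene, was the highest at 76.6 ± 8.34 TPM, followed by the kinase gene Plk2 at 46.2 ± 1.98, the neuropeptide precursor gene Vgf at 28.6 ± 8.06 and Nrn1 at 23.2 ± 3.60 TPM. Vgf was highest in replicate 3, at 21.1, 27.8 and 37.1 TPM, whereas Nrn1 was highest in replicate 2, at 19.6, 26.8 and 23.2 TPM. Ptgs2, the inducible cyclooxygenase gene, was lowest at 0.19 TPM in mean. The median deviations of this list were -0.14, 0.06 and 0.09.

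The machinery that carries the signal was expressed at much higher levels and was not highest in replicate 3. All 24 upstream genes were expressed, with a median of 24.4 TPM, and 0 were highest in replicate 3, 18 in replicate 2 and 6 in replicate 1, against the 31.4% of expressed genes given above. The calcineurin gene Ppp3ca stood at 150.4 ± 19.3 TPM and the kinase genes Camk2b and Camk2a at 145 ± 5.54 and 130 ± 4.27 TPM. The factor gene Mef2c, whose transcript length is uncertain, stood at 121 ± 22.97 TPM and the coactivator gene Crebbp was lowest, at 2.61 ± 0.30 TPM. Of the factors that sit on these promoters, Creb1 was at 5.57 ± 0.69 and Srf at 5.13 ± 0.36 TPM (both named after their values were seen). The list's median deviations were -0.0020, 0.10 and -0.10.

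Genes for partners and corepressors of the members were near the background. Of 13 such genes 11 were expressed, with a median of 4.46 TPM, and 3, 5 and 3 were highest in replicates 1, 2 and 3. The shares of expressed genes were 28.2%, 40.4% and 31.4%. Arnt2, the partner of Npas4 in neurons, stood at 31.6 ± 2.66 TPM and its relative Arnt at 3.54 ± 0.11 TPM. Hdac5 and Rxrb stood at 16.5 ± 1.02 and 11.8 ± 0.60 TPM. The Egr corepressor Nab2, itself a target of Egr factors, was highest in replicate 3, at 4.10, 4.25 and 5.03 TPM, while Nab1 stood at 9.45, 9.94 and 9.70 TPM. Batf3 was lowest, at 0.088 ± 0.034 TPM.

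**Figure D5:**
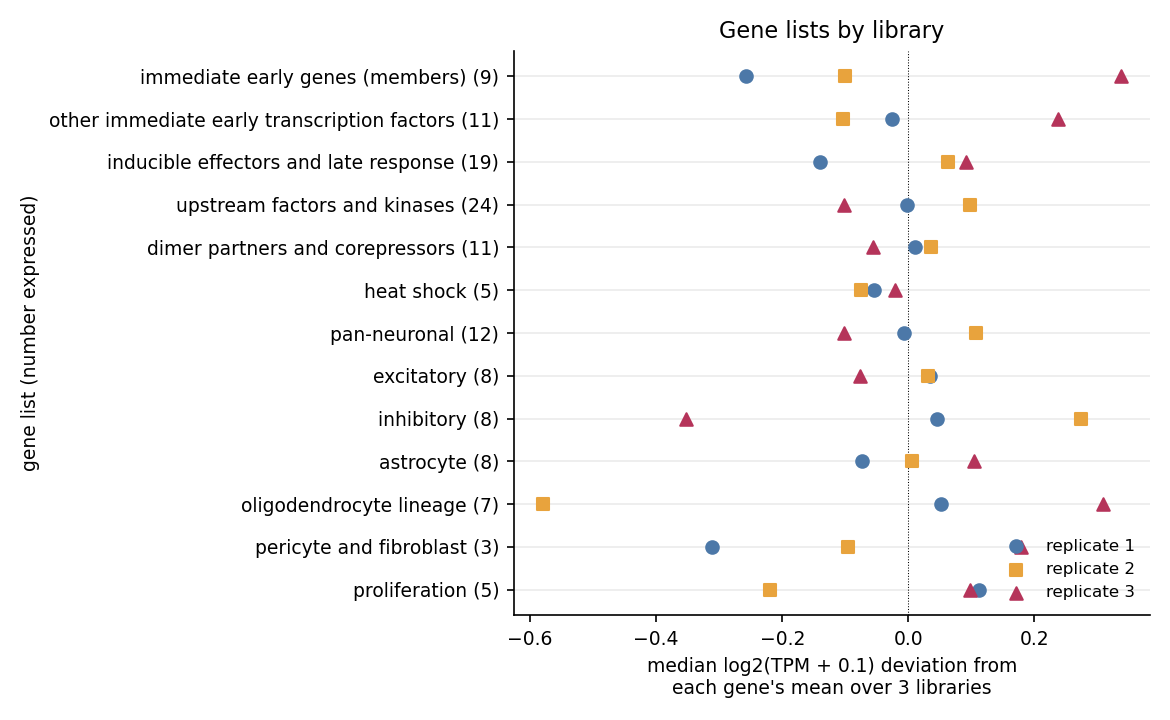
Median deviation of log2(TPM + 0.1) from each gene's mean over the 3 libraries, for the expressed genes of each list with at least 3 of them, by library. The triangle of replicate 3 lies at 0.34 for the 9 expressed members at 0.31 for the oligodendrocyte lineage, at 0.24 for other inducible regulators and at 0.18 for pericyte and fibroblast markers, and left of 0 for upstream, pan-neuronal and inhibitory genes.

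Markers of cell types also differed between the libraries. Of all expressed genes 31.4% were highest and 40.9% lowest in replicate 3. Pan-neuronal markers summed to 2841, 2947 and 2587 TPM in replicates 1, 2 and 3, and 0 of 12 were highest in replicate 3. Excitatory markers summed to 431, 427 and 413 TPM, with 2 of 8 highest in replicate 3. Inhibitory markers summed to 291, 305 and 201 TPM, with 1 of 8 highest there and 7 of 8 lowest. The highest and lowest means were those of Stmn2 (687 TPM), Gap43 (458) and Elavl4 (19.2) among pan-neuronal genes, Camk2a (130), Slc17a7 (89.98) and Slc17a6 (6.28) among excitatory genes, and Sst (106), Gad1 (84.6) and Dlx2 (1.58) among inhibitory genes. The neuronal sums were thus lowest in the library in which the 10 genes were highest. In bulk RNA, fewer cells of a type and less RNA per cell cannot be told apart.

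Some glial markers went the other way. Astrocyte markers summed to 425, 452 and 517 TPM, with 5 of 8 highest in replicate 3, and oligodendrocyte lineage markers to 67.9, 50.6 and 84.8 TPM, with 5 of 7 expressed genes highest there. The median deviations in replicate 3 were 0.10 for the astrocyte list and 0.31 for the oligodendrocyte lineage list. The second was close to the 0.34 of the expressed members in that replicate only. In replicates 1 and 2 the oligodendrocyte lineage list stood at 0.05 and -0.58, and the expressed members at -0.26 and -0.10. That list was thus lowest in replicate 2 and the members in replicate 1. Pericyte and fibroblast markers summed to 7.06, 7.17 and 7.34 TPM (1 of 3 expressed genes highest in replicate 3) and proliferation markers to 21.9, 17.2 and 21.3 TPM (2 of 5). Microglial markers summed to 2.66, 2.61 and 1.30 TPM, with Tmem119 at 0 reads in each library (a level of up to 0.031 TPM is allowed in replicate 2), and endothelial markers to 0.59, 0.90 and 0.56 TPM, with Cldn5 at 0 reads in each library. In mean level the leading astrocyte genes were Slc1a3 (184 TPM) and Aldoc (128), with S100b lowest (3.16), and the leading oligodendrocyte lineage genes Olig1 (34.4) and Olig2 (15.95), with Mobp lowest (0.018). Aif1 (1.03) and Tyrobp (0.46) led the microglial genes, Kdr (0.37) and Pecam1 (0.25) the endothelial genes, Acta2 (3.07) and Dcn (2.66) the pericyte and fibroblast genes, in which Col1a2 was lowest (0.073), and Pcna (8.36) and Top2a (4.13) the proliferation genes, in which Ccnb1 was lowest (0.61). Heat shock genes, which rise when cells are stressed, summed to 256, 266 and 268 TPM, with 1 of 5 expressed genes highest in replicate 3. The highest of them was Hspa5, a chaperone gene of the endoplasmic reticulum, at 93.2 ± 8.12 TPM, ahead of Hsp90aa1 at 76.1 ± 4.27, Hsph1 at 49.97 ± 5.75 and Hspa8 at 32.8 ± 3.07 TPM, and Hspb1 was lowest at 0.024 TPM. The part of these differences in the levels of the 10 genes was not tested.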

How the data were processed

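The labels' protocols name QIAgen RNeasy for the total RNA and the KAPA RNA HyperPrep kit for the 3 libraries. Build mm10, the aligner STAR 2.5.3a, the quality tool FastQC 0.11.2, Subread 1.4.6 and featureCounts stand in the submitters' processing notes. The authors deposited TPM, with 84660 rows, 1 for each transcript, and the deposited table's name gives GENCODE M4.

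Rows were matched by transcript ID without version to GENCODE M21 on GRCm38 (98.0% of rows; 1669 were left out). Multiplying TPM by exonic length and dividing by what 1 read is worth in that library gave whole reads, within 0.01, for 98.1% of values above 0. Where the M21 model gave no whole reads, the deposited outer ends, less 1 internal exon where needed, were used as the length: this applied to 6314 rows, and 1491 were not settled. Ties in reads went to the longer transcript.

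Differences are of log2(TPM + 0.1) inside each library, with two-sided exact sign-flip permutation tests and Benjamini-Hochberg adjustment over 8 pairs. Named are all members, the 4 highest and the lowest of each pathway list, relatives and partners of members, the 2 highest and the lowest of each marker list, and the 5 genes with the nearest profiles. The members and lists were chosen with earlier results of these data known. Alternatives tried were another pseudocount (1 or 0.01), taking the transcript with the highest TPM, the sum over transcripts, rescaling to nuclear coding genes, centring, other minimums, no filter and leaving out each replicate. The shorter Egr1 model, the 1.2-fold count and the sequence searches were added after the data were seen. Read recovery was tested on simulated data. Python 3.11.15, numpy 2.4.6, pandas 2.3.3, scipy 1.17.1 and matplotlib 3.10.9 were used.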

Additional observations from a re-analysis of the deposited data

How the results depend on the processing

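Of the differences between members, Junb minus Fos (0.48) and Nr4a1 minus Fos (0.05) reversed to -1.76 and -2.19 with the sum over transcripts, which counts the reads of overlapping Fos transcripts repeatedly. Nr4a1 minus Fos was -0.10 without replicate 1, and ranged from -0.10 to 0.14 over the fits that leave out 1 replicate. Egr3 minus Egr1 ranged from -0.20 to -0.045 over those fits, the latter without replicate 1. With the sum, Fosb, Arc and Npas4 lay at -5.22, -2.10 and -2.77 from Fos, and Egr2, Egr3 and Egr4 at -2.50, -1.45 and -3.95 from Egr1. With the most abundant transcript, which takes the shorter Egr1 model, these 3 lay at -4.24, -0.70 and -3.20, and with that model alone at -4.28, -0.70 and -3.20. With a pseudocount of 1, Fosb minus Fos was -1.89, Egr2 minus Egr1 -3.06 and Egr4 minus Egr1 -2.32, and with 0.01 the first of these pairs stood at -3.20 and the second at -3.82. The members' median level of 3.97 TPM was 5.84 with the sum and 18.6 after rescaling. A minimum of 5 TPM left 3 members expressed in place of 9, against 40.9% of all coding genes in place of 61.8%. The median deviations by replicate and the count of 10 members highest in replicate 3 kept their sign or value under the alternatives run for them. At 1.4 times, 3 members in place of 9 stood above both other libraries in replicate 3, against 0.964% of expressed genes in place of 4.49%. The share of genes with a spread below the members' median was 74.1% with no filter on low values, in place of 96.6%. No paired analysis was possible because there is 1 group, so no groups share replicate numbers; the differences between members were taken inside each library. Depth limits Fosb, with 65 to 133 reads, more than any other member.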
